A study of Homo sapiens with 14 samples.

Results

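The 32 genes described here encode the enzymes, sensors and transporters of cholesterol and fatty acid synthesis. They were chosen by gene symbol for their established place in these pathways, with earlier results of these data known. All 32 were found, each in 1 of the 55075 gene rows that every deposited table holds. They fall into 5 role groups: 7 enzymes of the mevalonate arm, 9 of the sterol arm, 5 sterol sensors and regulators, 8 enzymes of fatty acid synthesis and modification, and 3 genes of sterol efflux and of the liver X receptor (LXR) response.

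Gene expression was measured by RNA sequencing of bulk cells in CUTLL1 and CEM, established human lines of T cell acute lymphoblastic leukemia grown in suspension in RPMI medium. Cells were infected with retroviruses that express a short hairpin RNA against JMJD3 (shJMJD3; the gene is KDM6B), against UTX (shUTX; the gene is KDM6A) or against Renilla luciferase (shRenilla), a sequence that human cells lack and here the control. JMJD3 and UTX are histone demethylases that act on H3K27 methylation, which Polycomb complexes lay down, and the series sets the loss of either beside the control. CUTLL1 had 3 shJMJD3, 2 shUTX and 3 shRenilla samples, and CEM had 2 of each. All control cells therefore also carried a retrovirus and a hairpin. The sources used here give neither the hairpin sequences nor the time after infection.

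Cholesterol is built from acetyl-CoA through mevalonate, the isoprenoid diphosphates, squalene and lanosterol. When sterols in the endoplasmic reticulum run low, the escort protein SCAP carries the transcription factors SREBP1 and SREBP2 to the Golgi, where proteases release them to act on the genes of synthesis and uptake. INSIG proteins hold SCAP back when sterols are plentiful, and oxysterols turn on efflux genes through LXR. Proliferating lymphocytes are known to raise sterol and fatty acid synthesis through SREBP.

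The deposited values were 1 raw count per gene, hairpin and line, so no spread between replicates is known inside either line. Column totals ranged from 70280185 counts in CEM shJMJD3 to 258014046 in CUTLL1 shRenilla. The CUTLL1 shRenilla column was deposited in 2 forms, the larger beside shJMJD3 and the smaller, with 144394369 counts, beside shUTX. Their difference, 113619677 counts, is called the remainder. Small non-coding RNAs took between 1.97% and 18.7% of the counts in the CUTLL1 columns and at most 0.0486% in CEM. T cell marker genes summed to between 1978 and 3453 CPM (counts scaled to the column total, the usual CPM unit), and hepatocyte markers to at most 1.14 CPM. B cell markers summed to between 47.9 and 83.3 CPM in CEM and to at most 4.14 CPM in CUTLL1, and of them MS4A1 was at 0 in every column. The hairpin target was lower in both lines: the log2 ratio of KDM6B with shJMJD3 was -1.71 in CEM and -0.64 in CUTLL1, and that of KDM6A with shUTX was -1.36 and -1.13.

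The promoter sequences help to see what the group shares. RefSeq promoters (GRCh38.p14) were matched by symbol for 27 of the 32 genes, and the 250 bases before the start were searched on both strands. The degenerate sterol regulatory element TCACNCNAC, a form of the SREBP binding site, was present in 4 of the 27, or 14.8%, against 2.48% of all 27305 genes with a promoter in the table and 2.70% of 15843 protein-coding genes. These 4 were FDPS, HSD17B7, SREBF2 and FADS2, and each was at least 1.5-fold higher with shJMJD3 in CEM, as were 18 of the 27 matched genes. With column totals as the scaling, HSD17B7 and SREBF2 were under 1.5-fold. The stretches around the matches are printed because they carry the element. They lie at chr1:155308696-155308764 for FDPS, chr1:162790574-162790642 for HSD17B7, chr22:41832942-41833010 for SREBF2 and chr11:61815953-61816021 for FADS2, all on the plus strand, with the match in capitals.
FDPS: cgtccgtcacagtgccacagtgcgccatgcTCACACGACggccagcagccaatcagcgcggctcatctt
HSD17B7: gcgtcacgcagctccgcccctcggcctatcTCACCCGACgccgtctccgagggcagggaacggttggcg
SREBF2: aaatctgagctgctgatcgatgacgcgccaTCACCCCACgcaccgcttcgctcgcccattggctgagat
FADS2: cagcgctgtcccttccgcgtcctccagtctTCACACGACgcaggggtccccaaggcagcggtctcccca
The match began at position -140 from the start in FDPS, -98 in HSD17B7, -133 in SREBF2 and -220 in FADS2. In SREBF2 it overlaps the full 10-base sterol regulatory element, which was found in no other matched member and in 0.0439% of all genes with a promoter. A CCAAT box, the site of NF-Y, a factor known to act beside SREBP, was present in 18 of the 27 (66.7%) against 37.0% of all genes and 40.2% of protein-coding genes. It was present in 14 of the 18 genes at least 1.5-fold higher with shJMJD3 in CEM and in 4 of the other 9. The GC box GGGCGG, the site of SP1, was in 26 of the 27 (96.3%) against 46.2% of all genes and 62.1% of protein-coding genes. The E-box CACGTG was in 3 of the 27 (11.1%) against 7.73% and 9.73%. A match is a string of letters in a window and not a measured site of binding.

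With shJMJD3 in CEM, the lipid synthesis genes stood well above the control. Of the 32, 22 were at least 1.5-fold higher than with shRenilla and 3 were at least 1.5-fold lower, where 21% of all 16998 genes considered were higher and 25.3% were lower. Among protein-coding genes the shares were 21.8% and 22.1%. Since the genes were chosen with earlier results of these data known, these counts describe the group and are not an independent test. The median log2 ratio of the 32 was 0.93, against -0.06 over all genes considered, and 15 were at least 2-fold higher. The 16 enzymes of the mevalonate and sterol arms together summed to 1345 CPM with shJMJD3, 514 with shRenilla and 484 with shUTX. FDFT1 alone gave 584 of the 1345 CPM. Markers of other cell types also differed between these columns: myeloid markers summed to 22.9 CPM with shJMJD3 and 5.75 with shRenilla, and the B cell marker CD79A stood at 34.4 and 74.7 CPM. Their part in the result was not tested. Genes were considered where either column had at least 50 counts. Levels are in CPM, whereas log2 ratios are scaled by TMM (the trimmed mean of M values), so the ratios need not equal those of the levels. Each ratio is given with a 95% interval that covers counting error only, and a ratio within a line has no replicate check and no test. In bulk RNA, a change in the share of cells and a change in the RNA per cell cannot be told apart.

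**Figure D1:**
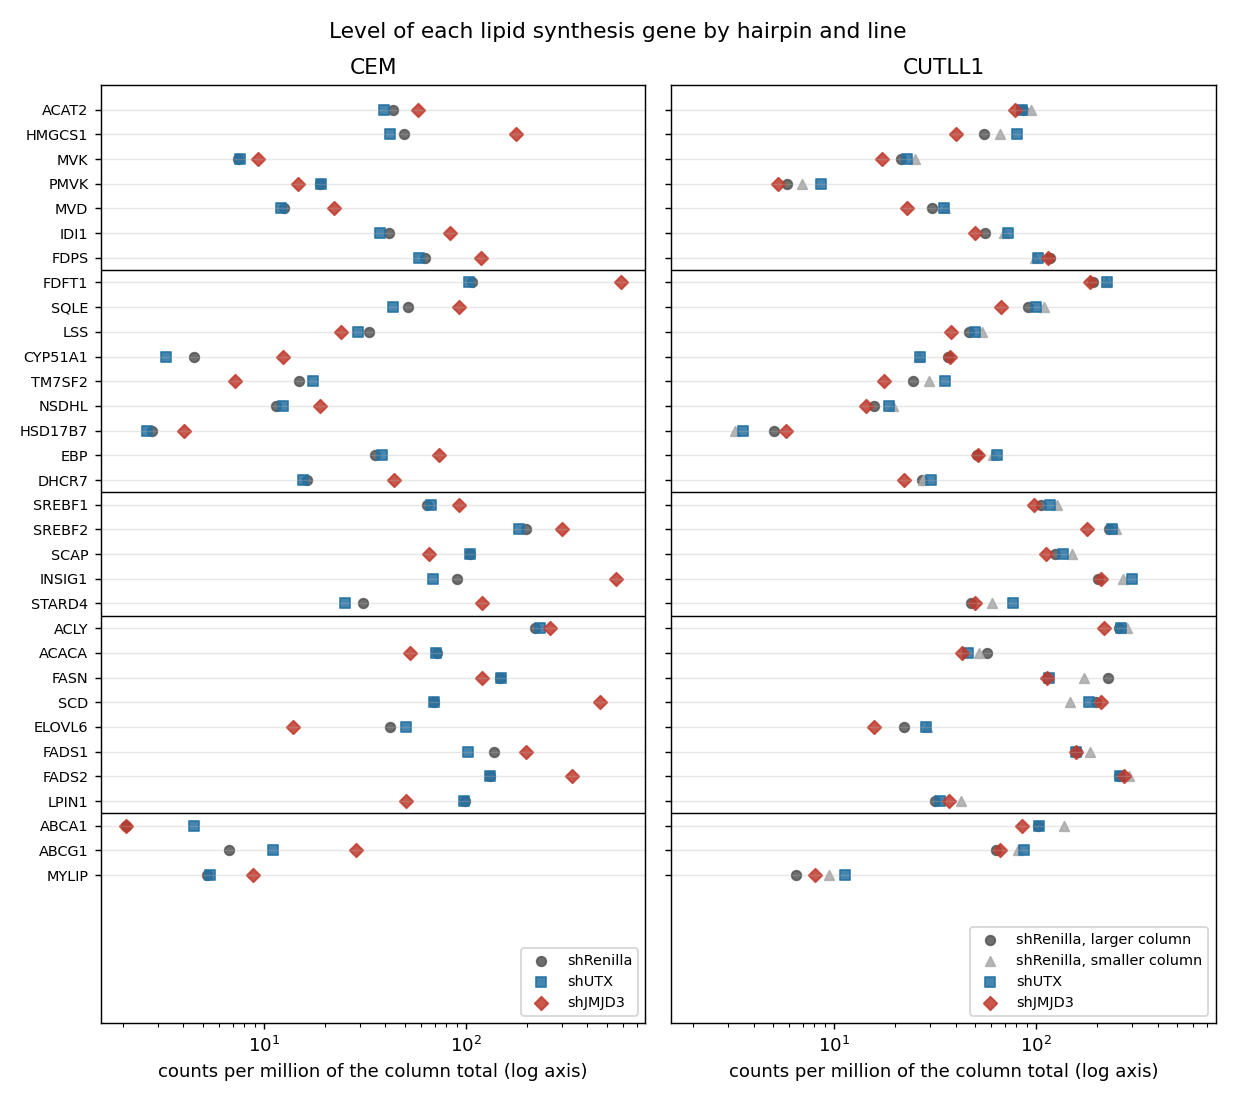
Level of each of the 32 genes in CEM (left) and CUTLL1 (right), in CPM on a log axis. Each point is 1 deposited column, and lines separate the 5 role groups. In CEM the shJMJD3 point of 23 genes lies to the right of both other points, among them FDFT1 (584 CPM), INSIG1 (554 CPM) and SCD (461 CPM). In CUTLL1 the shJMJD3 point of FASN (113 CPM) lies left of both control points (228 and 174 CPM).

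In the mevalonate arm, 6 of 7 enzymes were at least 1.5-fold higher with shJMJD3 in CEM and 0 were lower, with a median log2 ratio of 1.08. With column totals as the scaling 4 of the 7 were higher, without ACAT2 and MVK. That scaling lowers the log2 ratios of this comparison by 0.27. The shares of all genes with it were not computed, here or for the other role groups. HMGCS1, the synthase that makes HMG-CoA, stood at 177 CPM with shJMJD3, 42.3 with shUTX and 49.6 with shRenilla in CEM, a log2 ratio to shRenilla of 2.11 (2.06 to 2.16). Its CUTLL1 levels were 40.4 CPM with shJMJD3, 80.2 with shUTX, 55.1 in the larger and 66.7 in the smaller control column. The shJMJD3 column was thus the highest of the 3 in CEM and the lowest of the 4 in CUTLL1.

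IDI1, the isopentenyl diphosphate isomerase, stood at 83.4, 37.4 and 41.6 CPM with shJMJD3, shUTX and shRenilla in CEM, a log2 ratio of 1.27 (1.22 to 1.33). In CUTLL1, IDI1 stood at 49.9 CPM with shJMJD3, 72.5 with shUTX, and 56.0 and 69.3 in the larger and smaller control columns. FDPS, which makes farnesyl diphosphate, stood at 119, 58.6 and 62.7 CPM in CEM in the same order, a log2 ratio of 1.20 (1.15 to 1.24). Both enzymes were highest with shJMJD3 in CEM, whereas in CUTLL1 the CPM of IDI1 was lowest with it. The TMM-scaled log2 ratios of IDI1 in CUTLL1 were near 0, at -0.03 against the larger control column and -0.11 against the smaller. FDPS in CUTLL1 lay at 115 CPM with shJMJD3, 102 with shUTX, and 117 and 99.3 in the larger and smaller control columns. In CPM no hairpin lay outside the range of the controls. With TMM scaling, its shJMJD3 log2 ratio was 0.11 against the larger control column and 0.57 against the smaller.

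MVD, which decarboxylates mevalonate diphosphate, stood at 22.1, 12.1 and 12.6 CPM with shJMJD3, shUTX and shRenilla in CEM, a log2 ratio of 1.08 (0.98 to 1.19). Its CUTLL1 levels were 23.1 CPM with shJMJD3, 34.9 with shUTX, 30.5 in the larger and 35.5 in the smaller control column. PMVK, the phosphomevalonate kinase, was the exception of the arm: it stood at 14.7, 19.1 and 18.9 CPM in CEM, a log2 ratio of -0.09 (-0.20 to 0.02). PMVK was the only enzyme of the arm whose shJMJD3 level in CEM was below both other columns. In CUTLL1 it stood at 5.26 CPM with shJMJD3, 8.67 with shUTX, and 5.88 and 6.93 in the larger and smaller control columns. ACAT2, the cytosolic acetoacetyl-CoA thiolase at the head of the arm, and the mevalonate kinase MVK had log2 ratios of 0.68 and 0.61 in CEM.

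In the sterol arm, 7 of 9 enzymes were at least 1.5-fold higher with shJMJD3 in CEM and 1 was lower, with a median log2 ratio of 1.12. With column totals 6 were higher, without HSD17B7, and 1 was lower. FDFT1, the squalene synthase that commits farnesyl diphosphate to sterols, stood at 584 CPM with shJMJD3 in CEM, 104 with shUTX and 107 with shRenilla, a log2 ratio of 2.72 (2.69 to 2.75). In CUTLL1 it stood at 185 CPM with shJMJD3, 224 with shUTX, and 193 and 222 in the larger and smaller control columns. FDFT1 had the highest ratio of the arm in CEM. In CUTLL1 its CPM was lowest with shJMJD3, but its TMM-scaled log2 ratios were near 0. They were 0.08 against the larger control column and 0.10 against the smaller.

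CYP51A1, the lanosterol demethylase, stood at 12.4, 3.28 and 4.49 CPM with shJMJD3, shUTX and shRenilla in CEM, a log2 ratio of 1.73 (1.57 to 1.90). DHCR7, which reduces 7-dehydrocholesterol to cholesterol, stood at 43.9, 15.5 and 16.4 CPM in the same order, a log2 ratio of 1.69 (1.60 to 1.78). Both were highest with shJMJD3 in CEM, and CYP51A1 was lower with shUTX than with shRenilla. In CUTLL1, CYP51A1 stood at 37.4 CPM with shJMJD3, 26.7 with shUTX, and 36.8 and 26.3 in the larger and smaller control columns. DHCR7 stood at 22.1, 30.2, 27.2 and 27.7 CPM in the same order. The CUTLL1 controls of CYP51A1 thus lay nearly as far apart as the hairpins did.

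EBP, the sterol isomerase, stood at 73.7, 38.5 and 35.4 CPM with shJMJD3, shUTX and shRenilla in CEM, a log2 ratio of 1.33 (1.27 to 1.39). SQLE, the squalene epoxidase and a rate-limiting enzyme of the arm, stood at 93.0, 43.6 and 51.7 CPM, a log2 ratio of 1.12 (1.07 to 1.17). The CEM level of each was highest with shJMJD3. In CUTLL1, EBP stood at 51.4 CPM with shJMJD3, 64.4 with shUTX, and 51.0 and 61.5 in the larger and smaller control columns. SQLE stood at 67.3, 100 and 91.8 CPM with shJMJD3, shUTX and the larger control column, and at 109 CPM in the smaller. For SQLE the shJMJD3 column was the lowest of the CUTLL1 columns.

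TM7SF2, a sterol C14 reductase, went the other way in CEM. Its levels were 7.20 CPM with shJMJD3, 17.5 with shUTX and 15.0 with shRenilla, a log2 ratio of -0.79 (-0.94 to -0.64). In CUTLL1 it stood at 17.7 CPM with shJMJD3, 35.6 with shUTX, and 24.7 and 29.4 in the larger and smaller control columns. TM7SF2 was lowest with shJMJD3 and highest with shUTX in both lines. NSDHL, of the C4 demethylation complex, and HSD17B7, its ketoreductase, had log2 ratios of 1.00 and 0.79 in CEM, and the lanosterol synthase LSS had one of -0.20. Reads of HSD17B7 are uncertain, since its pseudogene HSD17B7P2 has a row of its own with 113 counts in CEM shJMJD3 and 140 in CEM shRenilla, beside 282 and 291 for the gene. The pseudogenes of FDPS summed to 29 and 31 counts in those columns, and that of SCD had 57 and 14.

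Of the sterol sensors and regulators, 4 of 5 were at least 1.5-fold higher with shJMJD3 in CEM, with a median log2 ratio of 0.85. With column totals only 2 of the 5 were higher, INSIG1 and STARD4, and SCAP was lower. INSIG1, the SCAP anchor that is itself an SREBP target, stood at 554 CPM with shJMJD3, 68.6 with shUTX and 90.5 with shRenilla in CEM, a log2 ratio of 2.88 (2.85 to 2.92). Its CUTLL1 levels were 211 CPM with shJMJD3, 299 with shUTX, 204 in the larger and 270 in the smaller control column. INSIG1 with shJMJD3 was far above the other CEM columns, and its CPM lay between the CUTLL1 controls. Its TMM-scaled log2 ratio in CUTLL1 was 0.19 against the larger control column and 0.005 against the smaller.

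STARD4, a sterol transfer protein of the cytosol, stood at 121, 25.3 and 31.1 CPM with shJMJD3, shUTX and shRenilla in CEM, a log2 ratio of 2.23 (2.17 to 2.29). In CUTLL1 its levels were 50.1 CPM with shJMJD3, 76.9 with shUTX, and 47.4 and 60.9 in the larger and smaller control columns. The order of the columns was the same as for INSIG1 in both lines. SREBF2 and SREBF1, which encode SREBP2 and SREBP1, had CEM log2 ratios of 0.85 and 0.79. SCAP stood at 65.5, 105 and 105 CPM in CEM, a log2 ratio of -0.42 (-0.47 to -0.37), the lowest ratio of the regulators there. In CUTLL1, SCAP stood at 112 CPM with shJMJD3, 136 with shUTX, and 125 and 151 in the larger and smaller control columns.

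Among the fatty acid genes in CEM, 3 of 8 were at least 1.5-fold higher with shJMJD3 and 2 were lower, with a median log2 ratio of 0.24. With column totals 2 were higher, without FADS1, and 2 lower. Of all genes considered, 21% were higher and 25.3% lower with TMM scaling. The share of the group that was lower was thus close to that of all genes. SCD, the stearoyl-CoA desaturase that makes oleate, had the highest ratio of all 32 genes, with 461 CPM with shJMJD3, 69.7 with shUTX and 69.3 with shRenilla, a log2 ratio of 3.00 (2.97 to 3.04). FADS2, a front-end desaturase of polyunsaturated fatty acids, stood at 334, 132 and 132 CPM, a log2 ratio of 1.61 (1.58 to 1.64). For both desaturases the shUTX and shRenilla columns of CEM were nearly level.

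SCD stood at 209 CPM with shJMJD3 in CUTLL1, at 182 with shUTX, and at 199 and 147 in the larger and smaller control columns. FADS2 stood at 273, 260, 258 and 288 CPM in the same order. In CPM, SCD with shJMJD3 was the highest of the CUTLL1 columns, nearer to the larger control column than to the smaller. The CPM of FADS2 with either hairpin lay between the control columns. With TMM scaling, the shJMJD3 log2 ratio of FADS2 was 0.23 against the larger and 0.29 against the smaller. FADS1, the partner desaturase, had a CEM log2 ratio of 0.80, and ACLY, which makes cytosolic acetyl-CoA, had one of 0.51.

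ELOVL6, which elongates palmitate, had the lowest ratio of the 32 genes in CEM, with 14.02 CPM with shJMJD3, 50.8 with shUTX and 42.3 with shRenilla, a log2 ratio of -1.32 (-1.42 to -1.22). Its CUTLL1 levels were 15.9 CPM with shJMJD3, 28.7 with shUTX, 22.2 in the larger and 28.9 in the smaller control column. The shJMJD3 column was the lowest of the deposited columns in each line. LPIN1, a phosphatidate phosphatase of triglyceride synthesis, was also lower in CEM, with a log2 ratio of -0.71, and stood at 0.37 in CUTLL1. The enzymes that build the chain itself were near the control in CEM, with log2 ratios of -0.19 for ACACA, the acetyl-CoA carboxylase, and -0.02 for FASN, the fatty acid synthase.

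The efflux and LXR group had 2 of 3 genes at least 1.5-fold higher with shJMJD3 in CEM. ABCG1, an exporter of cholesterol to lipoproteins, stood at 28.5 CPM with shJMJD3, 11.1 with shUTX and 6.73 with shRenilla in CEM, a log2 ratio of 2.35 (2.23 to 2.48). MYLIP, a ubiquitin ligase induced by LXR, stood at 8.88, 5.42 and 5.25 CPM, a log2 ratio of 1.03 (0.86 to 1.20). ABCA1, the exporter that loads apolipoproteins, stood at 2.08, 4.50 and 2.07 CPM, a log2 ratio of 0.27 (-0.04 to 0.58). So the ABCG1 and MYLIP columns were highest with shJMJD3, while ABCA1 was highest with shUTX.

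In CUTLL1, ABCG1 stood at 66.4 CPM with shJMJD3, 87.6 with shUTX, and 63.6 and 81.2 in the larger and smaller control columns. MYLIP stood at 8.06, 11.3, 6.48 and 9.48 CPM in the same order, and ABCA1 at 85.0, 103, 103 and 137. With shJMJD3, the CPM of ABCG1 and MYLIP lay between the control columns and that of ABCA1 below them. The TMM-scaled log2 ratios to the larger and smaller columns were 0.20 and 0.07 for ABCG1, and 0.46 and 0.13 for MYLIP.

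**Figure D2:**
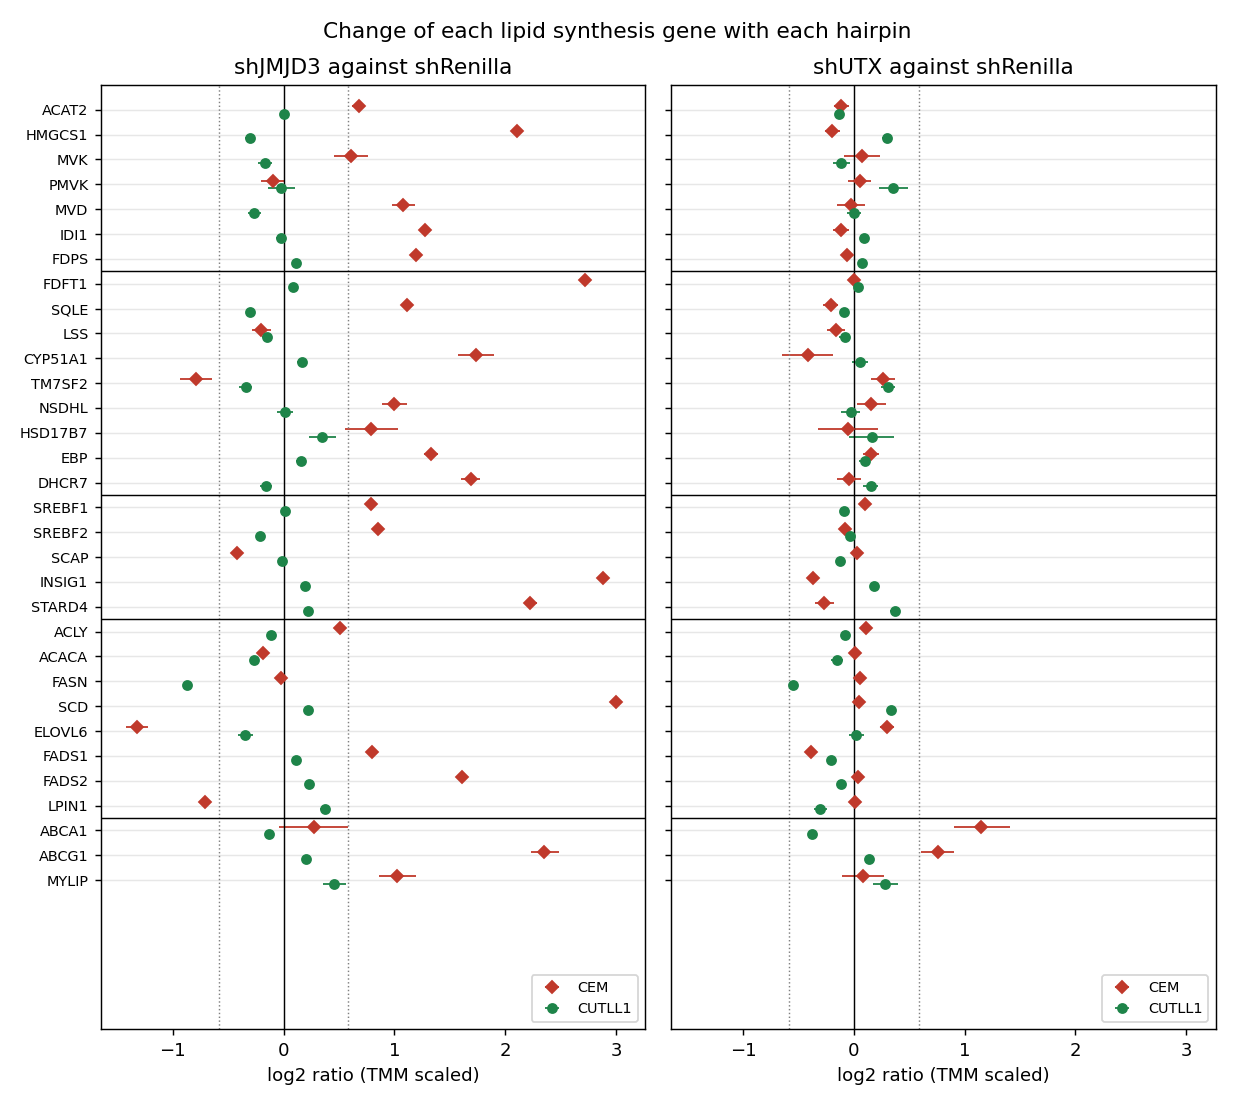
Log2 ratio of each of the 32 genes to shRenilla, TMM scaled, for shJMJD3 (left) and shUTX (right) in CEM (diamonds) and CUTLL1 (circles). Bars are 95% intervals for counting error only, dotted lines mark 1.5-fold, and solid lines separate the role groups. In CEM the shJMJD3 ratios reach 3.00 (SCD), while those of shUTX pass 1.5-fold for ABCA1 (1.15) and ABCG1 (0.76).

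In CUTLL1 the same hairpin left the group near the control. With shJMJD3, 0 of the 32 genes were at least 1.5-fold higher than in the larger shRenilla column and 1 was lower, where 8.37% of the 19772 genes considered were higher and 7.52% were lower. Among protein-coding genes the shares were 7.46% and 5.56%. The median log2 ratio was -0.01, the same to 2 decimals as over all genes considered, and 31 of the 32 lay within 0.5 of 0. The gene that was lower was FASN, at 113 CPM with shJMJD3 and 116 with shUTX, against 228 in the larger and 174 in the smaller control column. Both hairpins lay below both controls for FASN. Its log2 ratio was -0.87 (-0.89 to -0.85) against the larger control column but -0.26 against the smaller and -1.47 against the remainder. The highest ratio was that of MYLIP, 0.46 (0.35 to 0.56).

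**Figure D3:**
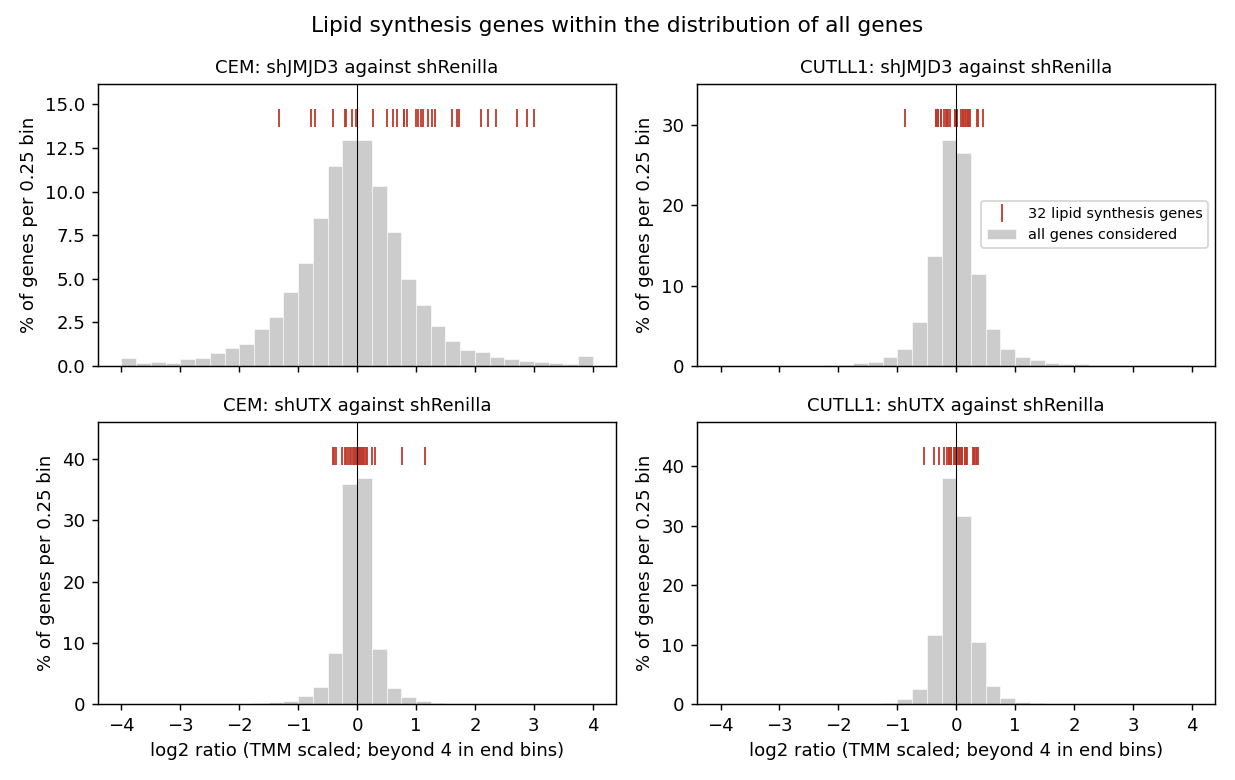
Distribution of the log2 ratios (TMM scaled) of all genes considered, as a percentage of genes per bin of 0.25 (grey bars), with the 32 lipid synthesis genes as red ticks, for each hairpin against shRenilla and each line. In CEM with shJMJD3 the ticks spread from -1.32 to 3.00 with a median of 0.93. In CUTLL1 with shJMJD3 they spread from -0.87 to 0.46 with a median of -0.01.

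The CUTLL1 ratios depended on the form of the control. Against the smaller column, 3 genes were at least 1.5-fold higher with shJMJD3 and 0 lower, where the shares of all genes were 19% and 5%. Against the remainder, 5 were higher and 2 lower, where the shares were 21.2% and 18.1%. The parts of the control also differed from each other: 6 of the 32 genes were at least 1.5-fold higher in the remainder than in the smaller column and 4 were lower, where 22% and 18.4% of 18546 genes were. Those higher were HSD17B7 (log2 ratio 1.69), CYP51A1 (1.46), SCD (1.37), FASN (1.30), FDPS (1.02) and ACACA (0.80), and the lowest was MYLIP (-1.30). Small non-coding RNAs took 18.7% of the remainder and 1.97% of the smaller column, and their part in these ratios was not tested.

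**Figure D4:**
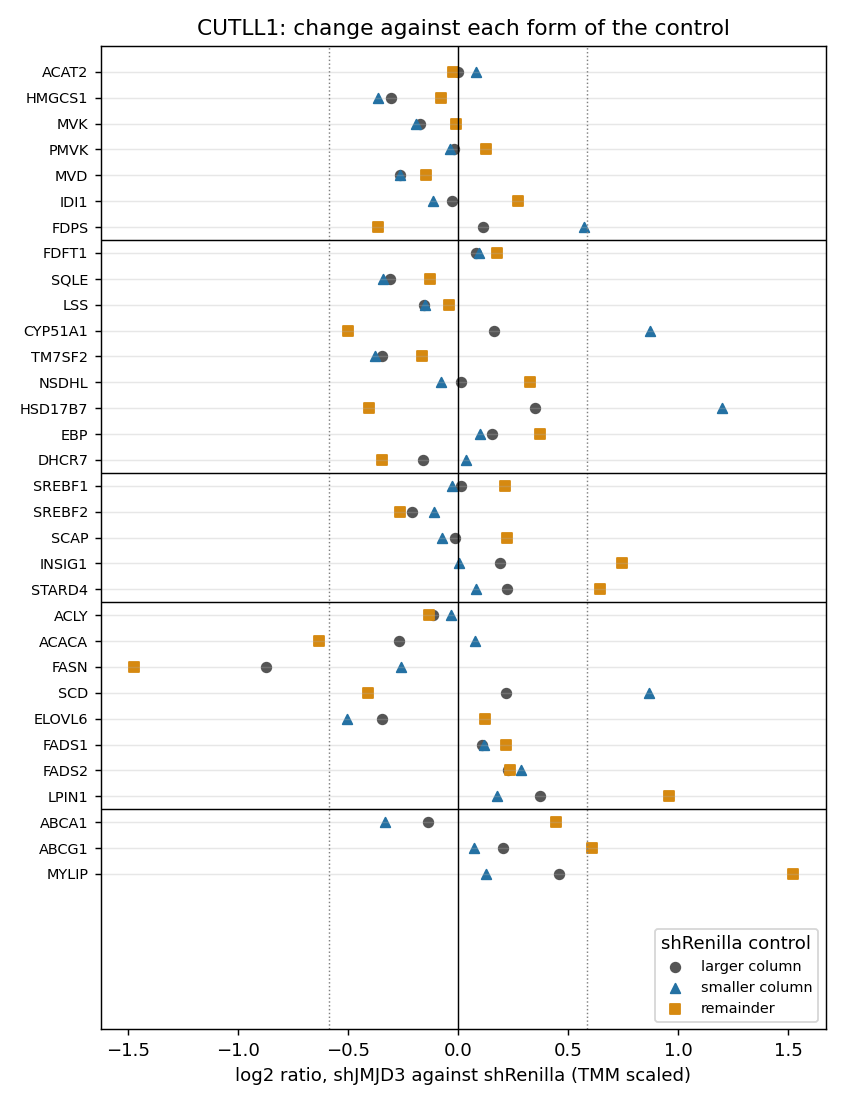
Log2 ratio (TMM scaled) of each of the 32 genes with shJMJD3 in CUTLL1, plotted against the larger control column (circles), the smaller (triangles) and the remainder (squares). Dotted lines mark 1.5-fold. FASN lies at -0.87, -0.26 and -1.47, and HSD17B7, CYP51A1 and SCD pass 1.5-fold against the smaller column and against neither other form.

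With shUTX, few of the genes passed 1.5-fold. In CEM 2 of the 32 genes were at least 1.5-fold higher than with shRenilla and 0 were lower, where 3.33% of 16791 genes considered were higher and 4.02% were lower. The genes were the exporters ABCA1, with a log2 ratio of 1.15 (0.90 to 1.41), and ABCG1, with 0.76 (0.61 to 0.91). The ABCA1 ratio rests on 319 counts with shUTX and 216 with shRenilla. In CUTLL1 the same exporters had ratios of -0.38 and 0.14. The other 30 genes lay between -0.42 for CYP51A1 and 0.30 for ELOVL6 in CEM.

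In CUTLL1, shUTX gave 0 genes at least 1.5-fold higher and 0 lower than the smaller control column, where 3.38% and 2.35% of 16886 genes considered were. Ratios ran from -0.55 for FASN to 0.37 for STARD4, and the median was 0.01 in each line. Against the larger control column 1 gene was higher and 3 were lower (6.26% and 18.3% of all genes), and against the remainder 4 and 6 (21.6% and 24.6%).

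Set directly against each other in CEM, shJMJD3 and shUTX differed as shJMJD3 and shRenilla did. These comparisons share the shJMJD3 column and are not independent. Of the 32, 21 were at least 1.5-fold higher with shJMJD3 and 4 lower, where 21.9% and 23.8% of 16229 genes considered were, and the median log2 ratio was 0.94. INSIG1 had the highest ratio, 3.25 (3.21 to 3.29), and ELOVL6 the lowest, -1.62 (-1.73 to -1.52).

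Between the same hairpins in CUTLL1, 2 of the 32 were at least 1.5-fold higher with shJMJD3 and 2 lower, where 19.4% and 6.2% of 18287 genes considered were, and the median was -0.02. Scaled to column totals instead, 1 gene was higher and 6 were lower. That scaling lowers the log2 ratios of this comparison by 0.33, and the shares of all genes with it were not computed. HSD17B7 and CYP51A1 were higher, with log2 ratios of 1.04 (0.87 to 1.22) and 0.82 (0.75 to 0.88). TM7SF2 and HMGCS1 were lower, with -0.68 (-0.75 to -0.61) and -0.66 (-0.70 to -0.61). CYP51A1 and HSD17B7 were at least 1.5-fold higher in both lines, as were 3.9% of 15113 genes considered in both, and TM7SF2 was lower in both, as were 2.4%. With column totals CYP51A1 in CUTLL1 had a log2 ratio of 0.48, under 1.5-fold. HMGCS1 was on opposite sides, with 2.30 (2.25 to 2.36) in CEM. The CUTLL1 log2 ratios of HSD17B7 and CYP51A1 to the control deposited beside each hairpin were smaller. They were 0.35 and 0.17 with shJMJD3, and 0.16 and 0.06 with shUTX. HSD17B7 and CYP51A1 also differed most of the 32 across the parts of the CUTLL1 control, at 1.69 and 1.46. In CUTLL1, 11.7% of shJMJD3 counts and 2.58% of shUTX counts were small non-coding RNAs. Their part in the ratios of these genes was not tested.

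Against shRenilla, 0 of the 32 genes passed 1.5-fold in the same direction in both lines. For shJMJD3, 2.41% of 15882 genes were higher in both and 2.67% lower, and for shUTX 0.376% of 15153 genes were higher in both and 0.158% lower.

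A test across lines takes CUTLL1 and CEM as replicates and asks for a change shared by both. For shJMJD3 against shRenilla, edgeR's quasi-likelihood F test called 0 of 24003 genes at a Benjamini-Hochberg adjusted p under 0.05 (0% higher and 0% lower). At an unadjusted p under 0.05 it named 936 genes, 0 of the 32 among them, and DESeq2 called 108 genes (0.472%), also with 0 of the 32. The edgeR adjusted p of the 32 genes ranged from 0.800 to 0.986, and 24 of them had log2 fold changes above 0. The hairpin target KDM6B, lower in both lines, was not called either. Its log2 fold change was -1.15, with an adjusted p of 0.800 in edgeR and 0.265 in DESeq2. A gene not called here is thus not shown to be unchanged.

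For shUTX against shRenilla, edgeR called 0 of 23112 genes (0% in each direction). It named 39 at an unadjusted p under 0.05, DESeq2 called 4 (0.01%), and the 32 genes were absent from both. For shJMJD3 against shUTX, edgeR called 0 of 24003 (0% in each direction) with 1945 at an unadjusted p under 0.05, among them 2 of the 32 higher and 2 lower. DESeq2 called 283 there (1.28%) and 0 of the 32. These tests have 2 residual degrees of freedom, and the smallest adjusted p over all genes was 0.0633, in the last comparison.

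The lines were also compared directly. With the hairpins as a block, edgeR called 10 of the 32 higher and 1 lower in CUTLL1 than in CEM, where 19% of 24003 genes tested were called higher and 17.8% lower. Both directions together, calls were about as frequent among the 32 as among all genes tested. Only their direction was uneven. DESeq2 called 14 of the 32, where 25.6% of 40694 genes were called. Those 40694 are all genes with a count in any column, many of them too low for the edgeR filter. The DESeq2 share is therefore not a like background for the 32. The largest difference was that of ABCA1, at 85.0 to 137 CPM in the deposited CUTLL1 columns and 2.07 to 4.50 CPM in CEM, a log2 fold change of 5.47 (SE 0.32, edgeR adjusted p = 0.00139). All CUTLL1 columns were above all CEM columns for it. CYP51A1 followed with a log2 fold change of 2.87 (SE 0.40, edgeR adjusted p = 0.00919) and ABCG1 with 2.81 (SE 0.50, edgeR adjusted p = 0.0159). The tests between the lines take columns of different hairpins as the replicates of each line. A response to a hairpin in only 1 line therefore enters their spread.

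The other genes called higher in CUTLL1 were MVK, TM7SF2, MVD, ACAT2, LSS, SREBF1 and SCAP, with log2 fold changes of 1.63 to 0.77. PMVK was lower, with -1.13 (SE 0.23, edgeR adjusted p = 0.0219). The calls of MVD, SREBF1 and SCAP were lost with column totals as the scaling, at edgeR adjusted p of 0.0774, 0.0944 and 0.0977. The labels name both polyadenylated RNA enrichment and ribosomal RNA depletion without saying which sample had which, so line and RNA selection cannot be told apart.

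Seen hairpin by hairpin, the distance between the lines changed. In the shRenilla columns (the larger for CUTLL1) 24 of the 32 stood at least 1.5-fold above CEM and 2 below, with a median log2 ratio of 1.02, where 35.3% and 30% of 20648 genes considered were. With the smaller CUTLL1 column 25 were higher and 2 lower, with a median of 1.04, where 29.9% and 32.3% of 18451 genes were. In the shUTX columns 26 were higher and 2 lower, with a median of 1.18, where 29% and 31.8% of 17339 genes were. In the shJMJD3 columns 9 were higher and 7 lower, with a median of -0.02, where 34.6% and 28.4% of 18924 genes were. The summed level of the 16 mevalonate and sterol enzymes was 514 CPM in CEM and 864 CPM in CUTLL1 with shRenilla (larger column), and 1345 and 768 CPM with shJMJD3. These counts use the same columns as the ratios to shRenilla and restate them from the side of the lines. With 1 column per hairpin and line, the difference between the lines in the response to shJMJD3 could not be tested.

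**Figure D5:**
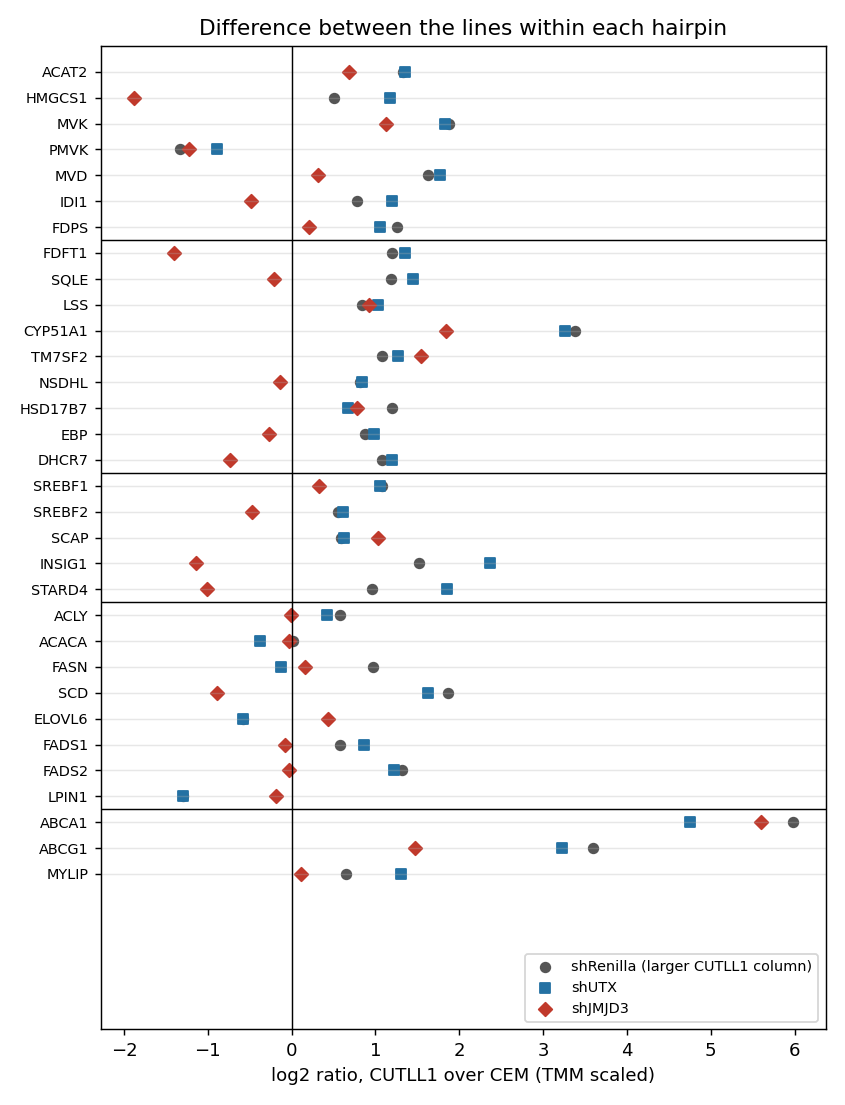
Log2 ratio of CUTLL1 over CEM (TMM scaled) for each of the 32 genes, within the shRenilla columns (circles, larger CUTLL1 column), the shUTX columns (squares) and the shJMJD3 columns (diamonds). The shRenilla and shUTX points have medians of 1.02 and 1.18. The shJMJD3 points have a median of -0.02, with HMGCS1 (-1.88), FDFT1 (-1.41), INSIG1 (-1.14) and STARD4 (-1.01) the furthest below 0 besides PMVK (-1.23).

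Other genes of the pathways were listed by their textbook roles, also with earlier results of these data known. They gave lower medians with shJMJD3 in CEM than the 32. Their counts stand beside the shares over all genes given above, 21% higher and 25.3% lower in CEM and 8.37% and 7.52% in CUTLL1. Of 13 further genes of cholesterol synthesis, uptake and storage considered, 6 were at least 1.5-fold higher and 1 was lower, with a median log2 ratio of 0.56. The one that was lower was SOAT2, which esterifies cholesterol, at -0.71 (-0.89 to -0.54). In CEM, SOAT2 stood at 5.11 CPM with shJMJD3, 4.05 with shUTX and 10.1 with shRenilla, so it was lower still with shUTX. In CUTLL1 its shJMJD3 ratio was on the other side of 0, at 0.99, from 94 and 76 counts. MSMO1, the C4 methyl oxidase, was picked after its value was seen and stood at 2.22. In CUTLL1 2 of the 13 were higher, 0 were lower and the median was 0.08.

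Of 8 genes that process SREBP or govern it, 3 were higher and 1 was lower in CEM, with a median of 0.27. INSIG2, the second SCAP anchor, had the highest ratio, 2.36 (2.29 to 2.43). Of 17 further fatty acid genes, 6 were higher and 1 was lower, with a median of 0.26. The acyl-CoA synthetase ACSL1 was lower in both lines, with -2.06 (-2.60 to -1.63) in CEM and -0.95 (-1.33 to -0.61) in CUTLL1. Of 8 further LXR pathway genes, 3 were higher and 2 lower, with a median of -0.12, so the share that was lower was close to that of all genes. The apolipoprotein APOE stood at 1.36 (0.99 to 1.79) and the transporter ABCA7 at -1.40 (-1.49 to -1.31).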

How the data were processed

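RNA sequencing of CUTLL1 and CEM cells with hairpins against JMJD3, UTX or Renilla gave 14 samples. The authors deposited 6 tables of raw read counts, 1 per line and pair of hairpins, with 1 pooled count column per hairpin and line per the file headers, and log2 ratios, scores and p-values from DEGseq, which were not used. CASAVA, TopHat and hg19 appear in the submitters' processing notes. The sources used here do not state the counting program, the annotation or whether strand was used. Labels do not say whether samples were separate cultures.

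Counts were divided by column totals (CPM) for levels. Within a line, log2 ratios used TMM on the 2 columns compared, a prior count of 2 and genes with at least 50 counts in either column, with exact binomial 95% intervals. Column totals as scaling would lower the shJMJD3 to shRenilla log2 ratios by 0.27 in CEM and 0.14 in CUTLL1. Across lines, edgeR 4.0.16 (R 4.3.3) fitted line and hairpin to 6 columns after filterByExpr, and DESeq2 1.42.0 was the alternative. Scripts were tested on simulated data. Promoters came from RefSeq (GRCh38.p14), which is not the build of the files.

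The genes and lists were chosen with earlier results of these data known. Values in every column are printed for genes 2-fold apart from shRenilla within a line and for the highest and lowest of each role group. Of the further lists, genes at 1.5-fold in the same direction in both lines are named, or else the highest and lowest in CEM. Some genes are not reported here.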

Additional observations from a re-analysis of the deposited data

Results flagged for a closer look

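HMGCS1, the HMG-CoA synthase, lay on opposite sides of 0 in the lines when shJMJD3 was set against shUTX, with a log2 ratio of -0.657 in CUTLL1 and 2.3 in CEM. This difference between the lines was not tested, because each line has 1 column per hairpin.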

How the results depend on the processing

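No paired analysis was possible because the deposited columns are pooled and carry no replicate numbers, and for the same reason no replicate could be left out. All 57 ratios at 1.5-fold kept their direction under the 230 alternatives of scaling, prior count and control column computed for them, and 18 of those values fell under 1.5-fold. Column totals moved these log2 ratios by at most 0.33, which is less than 1.5-fold, so that scaling could not have reversed them. Of these ratios, only that of FASN with shJMJD3 in CUTLL1 had other control columns among its alternatives. In CEM the count of genes higher with shJMJD3 than with shRenilla was 22, and 16 with column totals or, chosen after seeing the data, protein-coding totals. Against the smaller control column the CUTLL1 counts for shJMJD3 were 3 higher and 0 lower, and against the remainder 5 and 2. For shUTX they were 1 and 3 against the larger column, and 4 and 6 against the remainder. For shJMJD3 against shUTX in CUTLL1, column totals gave 1 higher and 6 lower. The shares of all genes with column totals or protein-coding totals were not computed, so these counts have no share beside them. A 2-fold limit gave 0 lower for shJMJD3 against shRenilla in CUTLL1 and 1 in CEM, 1 higher for shUTX in CEM, and for shJMJD3 against shUTX 1 higher and 0 lower in CUTLL1 and 2 lower in CEM. Across lines, DESeq2 called 108, 4 and 283 genes for shJMJD3 against shRenilla, shUTX against shRenilla and shJMJD3 against shUTX, where edgeR called 0. For the last, edgeR called 6 with column totals and 55 without a filter. The cause was not tested. Among the 32 genes in the 6 comparisons as deposited, the widest counting interval was 0.31 on either side of the ratio, for ABCA1 in CEM, and genes of the further lists with fewer counts had wider ones.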
